A study of Mus musculus with 6 samples.

Results

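The Ifit genes encode the interferon-induced proteins with tetratricopeptide repeats, a family of RNA-binding antiviral proteins. Here the family was taken as Ifit1, Ifit2, Ifit3, Ifit3b, Ifit1bl1 and Ifit1bl2, which are 6 of the 40803 genes counted in mouse liver. The family was selected on the comparison described below, because Ifit1, Ifit3 and Ifit3b were among the genes with the highest fold changes. Its levels and fold changes are therefore given as a description, and no p-value or call is reported for the 6 genes.

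Liver RNA was sequenced from 3 mice of the rAAV8-sh-scramble group and 3 mice of the rAAV8-sh-Hnf1aos1 group. All were male C57BL/6J mice on ordinary feeding that received the vector through the tail vein at approximately 6 weeks of age, and livers were taken 4 weeks later. Both vectors were adeno-associated virus serotype 8 particles that carried an EGFP reporter under the CAG promoter and a short hairpin RNA under the U6 promoter, so the control livers had received a virus and a hairpin as well. The hairpin of the knockdown group targeted Hnf1aos1, a long non-coding RNA of the liver. A library without any vector was not analysed here, and the U6 promoter is not specific to one cell type.

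IFIT proteins bind viral and other foreign RNA. IFIT1 recognises messenger RNA whose cap lacks the methyl group that cells place on the first ribose, and it blocks translation of that RNA. Ifit genes are nearly silent in resting cells and are switched on by interferon through ISGF3, a transcription factor complex that includes STAT2 and IRF9 and binds the interferon-stimulated response element, or directly by interferon regulatory factors after viral RNA is sensed.

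The 6 genes lie in a cluster on chromosome 19, in the order Ifit2, Ifit3, Ifit1bl1, Ifit3b, Ifit1bl2 and Ifit1. The cluster lies between positions 34550694 and 34650009 of GRCm38 in the GENCODE M21 annotation. GENCODE has 7 genes in this span, and the gene that is not a member has no row under its symbol in the count table. All 6 members are annotated as protein coding. Ifit2, Ifit3, Ifit3b and Ifit1 are on the plus strand, and Ifit1bl1 and Ifit1bl2 are on the minus strand. Ifit1bl2 and Ifit1 point away from each other, with annotated starts 146 bases apart in RefSeq. Their promoter stretches are shown here because interferon acts on these genes at their promoters and because Ifit3 and Ifit3b are nearly identical there. Capitals mark each match to TTTCNNTTTC, the core of the interferon-stimulated response element, on the strand printed. All stretches are RefSeq sequence of GRCm38.p6, printed 5′ to 3′ in the direction of the named gene.

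The first stretch, chr19:34640743-34640889 on the plus strand, runs from the start of Ifit1bl2 to the start of Ifit1. The stretches of Ifit3, chr19:34583353-34583446, and Ifit3b, chr19:34607749-34607842, are on the plus strand, and that of Ifit1bl1, chr19:34602043-34602092, is on the minus strand.
Ifit1: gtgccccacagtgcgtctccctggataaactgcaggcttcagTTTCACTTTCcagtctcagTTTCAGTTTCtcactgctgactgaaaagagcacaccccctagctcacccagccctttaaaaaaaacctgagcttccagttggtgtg
Ifit3: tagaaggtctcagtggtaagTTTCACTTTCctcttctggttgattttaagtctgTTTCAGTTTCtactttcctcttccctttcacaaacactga
Ifit3b: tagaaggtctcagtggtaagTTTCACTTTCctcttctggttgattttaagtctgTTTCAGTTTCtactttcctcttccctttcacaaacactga
Ifit1bl1: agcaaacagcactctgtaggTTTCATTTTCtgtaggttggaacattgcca

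The Ifit1 stretch holds 2 matches, at −104 to −95 and −85 to −76 bases from the Ifit1 start, counted as 0. The same bases read from the other strand are 2 matches in the window of this Ifit1bl2 start, at −70 to −61 and −51 to −42 from it, while the window of the other RefSeq start of Ifit1bl2, at 34629811, has 0. The printed Ifit3 and Ifit3b stretches are identical at 94 of 94 bases, and the aligned parts of their promoter windows are identical at 259 of 260 bases. Gaps were left out of that comparison, so bases inserted or lost in either window are not counted as differences. The matches are at −156 to −147 and −122 to −113 in Ifit3, and at −188 to −179 and −154 to −145 in Ifit3b. Ifit1bl1 has 1 match in the window of each of its 2 RefSeq starts. No match was found in either window of Ifit2, which says only that these letters are not within 250 bases before and 50 bases after those starts. Searched on both strands, the motif was present in 3.44% of 32851 RefSeq promoter windows of 300 bases.

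Each library held between 14704746 and 19462398 reads counted on genes, with more in every knockdown library than in any scramble library. Of the genes, 16327 passed the filter on low counts and were tested. A gene was called when its Benjamini-Hochberg adjusted p in edgeR's quasi-likelihood test was under 0.05. Called genes made up 6.32% of those tested, and genes called higher in the knockdown group made up 3.09%. The unadjusted p was under 0.05 for 3822 of the 16327 genes. Hnf1aos1 itself had normalized counts of 512, 491 and 620 in the scramble libraries and 278, 258 and 433 in the knockdown libraries, with no overlap. Its log2 fold change was −0.74 ± 0.195 (SE, n = 3 per group) and was not called (edgeR adjusted p = 0.0625), and the exact two-sided permutation p was 0.1, the smallest that 3 against 3 libraries allow.

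All 6 Ifit genes passed the filter, and 5 of them had higher normalized counts in every knockdown library than in any scramble library. The exception was Ifit1bl1. Across all genes tested, 15.2% had every knockdown library above every scramble library. Since the family was picked on this contrast, nothing is read from its count. Normalized counts are read counts scaled to a common effective library size, and errors are SD over 3 libraries or the SE of a fitted log2 fold change.

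**Figure D1:**
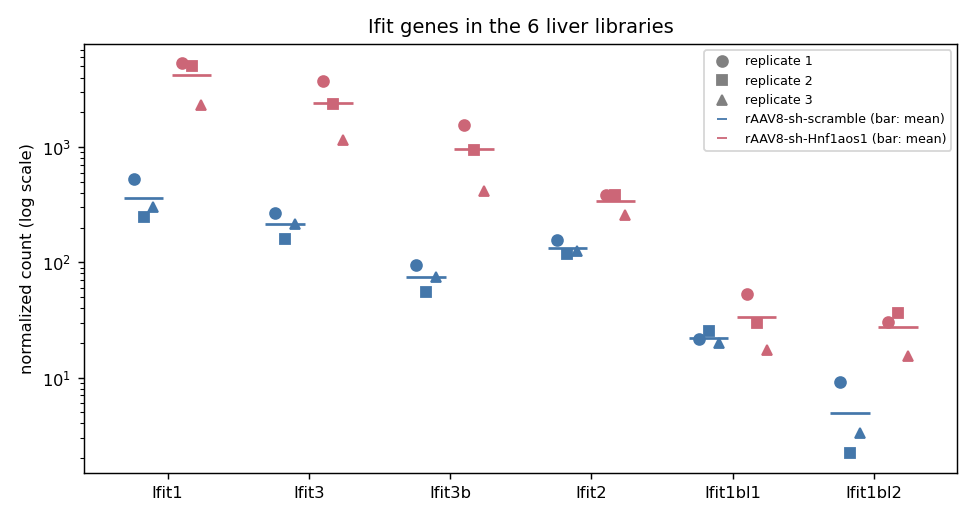
Normalized count on a log axis for each Ifit gene in each of the 6 libraries, with symbols for the replicates and a bar at the group mean. Knockdown libraries (red) lie above scramble libraries (blue) for every gene except Ifit1bl1, and knockdown replicate 3 is the lowest knockdown library for all 6 genes.

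Ifit1 was the most abundant member in the knockdown livers. Its normalized count was 532, 247 and 299 in the scramble libraries and 5306, 5034 and 2307 in the knockdown libraries. The groups were far apart, and the lowest knockdown library was several times the highest scramble library. The mean went from 360 ± 152 to 4216 ± 1659, a fitted log2 fold change of 3.55 ± 0.509, or 11.7-fold.

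Ifit3 encodes the family member whose human counterpart binds and stabilises IFIT1. It had 267, 159 and 214 normalized counts in the scramble libraries and 3712, 2363 and 1153 in the knockdown libraries. Its log2 fold change was 3.49 ± 0.546, or 11.3-fold. The knockdown libraries differed among themselves by 3.22 times, against 1.68 times among the scramble libraries.

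Ifit3b, the close copy of Ifit3, had 94.4, 54.9 and 74.8 normalized counts in the scramble libraries and 1560, 937 and 412 in the knockdown libraries. Its log2 fold change of 3.69 ± 0.639, or 12.9-fold, was the highest of the family. By log2 fold change Ifit3b ranked 9, Ifit1 ranked 11 and Ifit3 ranked 14 among the 16327 genes tested.

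Ifit2, whose protein also binds RNA and restricts viruses in mice, moved less. Its normalized count was 155, 117 and 124 in the scramble libraries and 386, 382 and 257 in the knockdown libraries. The groups did not overlap, and the spread within each was the narrowest of the 5 genes that did not overlap. The log2 fold change was 1.37 ± 0.177, or 2.58-fold, and ranked 162 among the genes tested.

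Ifit1bl2 and Ifit1bl1 are Ifit1-like copies on the opposite strand, and both were rare. Ifit1bl2, which passed the filter only through its knockdown libraries, had raw counts of 9, 2 and 3 in the scramble libraries and 32, 38 and 17 in the knockdown libraries. Its log2 fold change was 2.42 ± 0.525 and was 3.26 without scramble replicate 1, which held most of the scramble reads. Ifit1bl1 had 21.5, 25.2 and 19.8 normalized counts in the scramble libraries and 53.4, 29.5 and 17.2 in the knockdown libraries. For Ifit1bl1 the groups overlapped, knockdown replicate 3 was below every scramble library, and the log2 fold change was 0.58 ± 0.393.

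Summed over the 6 genes, the normalized count was 1079, 606 and 736 in the scramble libraries and 11048, 8781 and 4162 in the knockdown libraries. The ratio of the means was 9.91. Relative to the scramble mean, the knockdown libraries stood at 13.7, 10.9 and 5.16. Knockdown replicate 3, with the lowest family sum of its group, also had the highest Hnf1aos1 count of its group, and with 3 libraries no relation was tested. The family took 0.0048% of gene counts on average in the scramble libraries and 0.0457% in the knockdown libraries.

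Levels were compared between genes by TPM, deposited values that scale counts for gene length and library size. In scramble livers the mean TPM was 17.7 ± 7.36 for Ifit1, 10.4 ± 2.65 for Ifit3, 4.37 ± 1.17 for Ifit3b, 3.95 ± 0.581 for Ifit2, 0.906 ± 0.0920 for Ifit1bl1 and 0.188 ± 0.143 for Ifit1bl2. The ranges of Ifit1 and Ifit3 overlapped in this group, but Ifit1 was above Ifit3 within each of the 6 libraries, at 1.42 to 2.16 times its TPM. The ranges of Ifit3b and Ifit2 overlapped as well, and in scramble replicate 2 Ifit2 was the higher (3.43 against 3.14). In knockdown livers the mean TPM was 198 ± 80.8 for Ifit1, 112 ± 63.0 for Ifit3, 54.3 ± 33.8 for Ifit3b, 9.71 ± 2.23 for Ifit2, 1.31 ± 0.766 for Ifit1bl1 and 0.998 ± 0.391 for Ifit1bl2. In that group Ifit2 was below every library of Ifit3b, while Ifit1, Ifit3 and Ifit3b overlapped each with the next, as did Ifit1bl1 and Ifit1bl2. The order by mean was the same in both groups, and the same by normalized counts per kilobase of GENCODE exon.

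By mean TPM among the genes tested, Ifit1 stood at percentile 72.6 in scramble livers and 97.1 in knockdown livers. Ifit3 moved from 60.5 to 94.8 and Ifit3b from 41.7 to 89.7. Ifit2 moved from 39.7 to 59.7, Ifit1bl1 from 13.1 to 21.1 and Ifit1bl2 from 1.11 to 16.7.

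The make-up of the family is given as a description only. The family was picked because Ifit1, Ifit3 and Ifit3b rose most, so lower shares of members that rose less follow from that choice. Ifit2 made up 9.14%, 12.6% and 10.8% of the summed Ifit TPM in the scramble libraries and 2.10%, 2.64% and 3.78% in the knockdown libraries. Ifit1bl1 went from 2.61% ± 1.01 to 0.341% ± 0.0599, also with no overlap. Ifit3 made up 25.6%, 27.9% and 30.5% in the scramble libraries and 32.9%, 26.6% and 27.6% in the knockdown libraries. Its share overlapped between the groups, as did those of Ifit1 (46.3% ± 4.85 and 53.8% ± 5.27), Ifit3b (11.7% ± 0.953 and 13.7% ± 2.54) and Ifit1bl2 (0.458% ± 0.212 and 0.275% ± 0.0554). The ratio of Ifit1 to Ifit2 in TPM was 4.38 ± 1.16 in scramble livers and 19.8 ± 4.31 in knockdown livers.

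**Figure D2:**
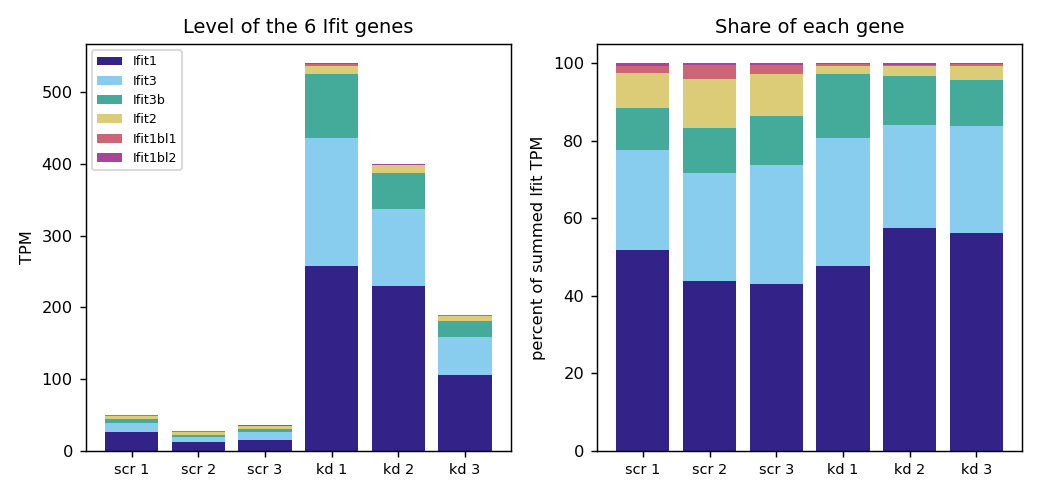
Left, summed TPM of the 6 Ifit genes per library, stacked by gene, for scramble (scr) and knockdown (kd) replicates. Right, the same as percent of the summed Ifit TPM, where Ifit2 makes up 9.14% to 12.6% of the sum in scramble libraries and 2.10% to 3.78% in knockdown libraries.

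Because the copies are alike, reads can be hard to assign. Among 150-base windows of the GENCODE transcripts, 18.6% of those of Ifit3 also occur in Ifit3b and 16.0% of those of Ifit3b occur in Ifit3, while Ifit2 and Ifit1bl1 share none with another gene. At 50 bases 51.2% of the windows of Ifit3 occur in Ifit3b and 44.5% of those of Ifit3b occur in Ifit3. Only reads with a unique place in the genome were counted. The reads were paired, so a read from such a window would be missing from both genes unless the other read of its pair placed it. The window shares therefore do not give the part of reads lost. Ifit3b held 26.1%, 25.6% and 25.9% of the Ifit3 and Ifit3b counts in the scramble libraries and 29.6%, 28.4% and 26.3% in the knockdown libraries. The split between Ifit3 and Ifit3b thus rests on the reads that could be placed. The family sum does not depend on that split, apart from reads not counted. Ifit1 and Ifit1bl2 share 1.24% and 0.963% of their 150-base windows. Whether counting used the strand is not given in the sources used here.

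The genes next to the cluster were not used to choose the family, and of the 10 taken, the 5 nearest on each side, 7 passed the filter. Of these 7, 1 was called, against the 6.32% of all genes tested. Lipa, which encodes lysosomal acid lipase and lies 23220 bases before the cluster, was lower in the knockdown group. It had 5389.5, 6090.8 and 5195.5 normalized counts in the scramble libraries and 4287.5, 4176.4 and 4259.6 in the knockdown libraries, with no overlap. Its log2 fold change was −0.39 ± 0.0951 (edgeR adjusted p = 0.0374). The call was lost without any of scramble replicates 1, 2 and 3 or knockdown replicates 1 and 2, where the edgeR adjusted p ranged from 0.0586 to 0.133, and with library sizes set by the ERCC spike-ins (log2 fold change −0.19, edgeR adjusted p = 0.244).

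On the other side, Slc16a12, a creatine transporter gene 18394 bases after the cluster, had a log2 fold change of −0.09 ± 0.0915 (edgeR adjusted p = 0.589), and Pank1, a pantothenate kinase gene, had −0.13 ± 0.113 (edgeR adjusted p = 0.508). Fas, which encodes a death receptor, had 341, 325 and 365 normalized counts in scramble livers and 371, 385 and 390 in knockdown livers, a log2 fold change of 0.15 ± 0.0982 that was not called (edgeR adjusted p = 0.373) but was called with spike-in library sizes (0.36, edgeR adjusted p = 0.0305). Stambpl1, Acta2 and Kif20b had log2 fold changes of 0.09 ± 0.391, −0.54 ± 0.344 and 0.21 ± 0.355, none called. Ch25h, Gm22082 and Mir107 had too few reads to be tested.

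**Figure D3:**
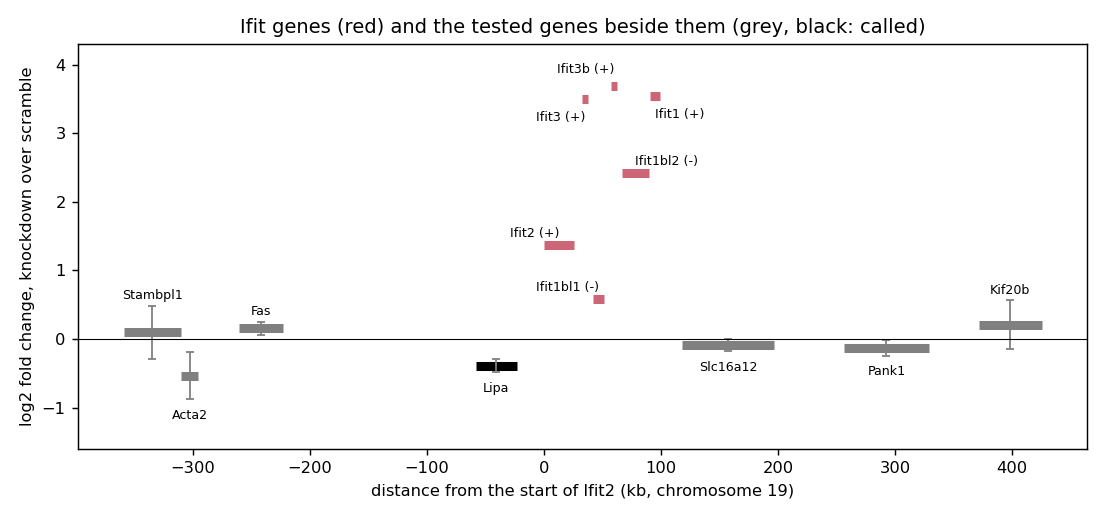
Fitted log2 fold change (knockdown over scramble) of the 6 Ifit genes (red, strand in parentheses) and the 7 tested neighbours (grey, with SE, Lipa in black as the called one) against distance from the start of Ifit2 in kilobases. The neighbours lie between −0.54 and 0.21, and the Ifit genes lie between 0.58 and 3.69.

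The rest of the interferon pathway, and genes that make, methylate, remove or bind messenger RNA caps, were read from 8 lists of genes. These held 114 genes in the count table, of which 93 were tested and are called pathway genes below, the cap genes included. Of the 93, 34 were called higher and none was called lower, against 3.09% of all genes tested that were called higher. The lists were chosen with earlier results of these data known, so these counts are a description and not an independent test. The total was 28 without scramble replicate 1, 14 without scramble replicate 2, 2 without scramble replicate 3, 22 without knockdown replicate 1, 11 without knockdown replicate 2 and 48 without knockdown replicate 3. Calls over all genes moved the same way. With all 6 libraries 505 genes were called higher, and in the same order of left-out libraries 268, 169, 38, 293, 140 and 1015. The left-out counts of each list below stand beside these totals. Over all 16327 genes tested, the median log2 fold change was −0.0004.

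No interferon ligand gene was called. Of 20 in the table, 17 had 0 counts in every library, among them Ifnb1 and 12 Ifna genes. A count of 0 allows up to 3 counts, or 0.154 to 0.204 CPM (counts scaled to a common library total) depending on the library, and a ligand made by few cells or at an earlier time would not be seen. Ifnk, a type I interferon of epithelia, was the only ligand tested. It had 69.8, 57.1 and 78.1 normalized counts in scramble livers and 51.5, 51.3 and 34.4 in knockdown livers (log2 fold change −0.58 ± 0.234, edgeR adjusted p = 0.163, unadjusted p = 0.0302). Ifng, the type II interferon gene, reached at most 4 raw counts in any library.

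Of 8 tested receptor and kinase genes 1 was called, Ifngr2, which encodes the signalling chain of the interferon gamma receptor (log2 fold change 0.87 ± 0.175, edgeR adjusted p = 0.0233). That count was 0 without scramble replicate 1, scramble replicate 3, knockdown replicate 1 or knockdown replicate 2 and 2 without knockdown replicate 3, 2 in DESeq2 or without a filter, and 3 with spike-in library sizes, which added Ifnar1 and Jak1. Ifnar1 and Ifnar2, the chains of the type I receptor, had log2 fold changes of 0.21 ± 0.0879 (edgeR adjusted p = 0.169) and 0.02 ± 0.0829 (edgeR adjusted p = 0.923). The median of the 8 was 0.13.

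Irf9, which encodes the DNA-binding subunit of ISGF3, had 796, 602 and 685 normalized counts in scramble livers and 1002, 1145 and 931 in knockdown livers. Its log2 fold change was 0.56 ± 0.118 and was called (edgeR adjusted p = 0.0217), a call lost when scramble replicate 2, scramble replicate 3 or knockdown replicate 2 was left out. Stat2, which encodes another ISGF3 subunit, had 0.31 ± 0.101 and was not called (edgeR adjusted p = 0.0927). Irf7, the regulator that amplifies interferon production, had 639, 311 and 443 normalized counts in scramble livers and 1743, 1593 and 964 in knockdown livers, with no overlap and no call (1.62 ± 0.359, edgeR adjusted p = 0.0696). Irf7 was called in DESeq2, and in edgeR with a replicate block, with spike-in library sizes, or when scramble replicate 1 or knockdown replicate 3 was left out.

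Of 14 tested nucleic acid sensor and adaptor genes 6 were called, all higher. Rigi and Ifih1, which encode the cytoplasmic RNA helicases RIG-I and MDA5, had log2 fold changes of 1.30 ± 0.210 and 1.31 ± 0.195. Dhx58, which encodes the related helicase LGP2, had 1.55 ± 0.207, and Tlr3, the endosomal sensor of double-stranded RNA, had 0.82 ± 0.154. Mavs, the adaptor of the helicases, was not called (−0.11 ± 0.0902, edgeR adjusted p = 0.506). The count of 6 was 2 without scramble replicate 2, 1 without scramble replicate 3 or knockdown replicate 2, and 9 without knockdown replicate 3. In DESeq2 it was 7.

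Of 8 tested genes that restrain the response 5 were called higher. Usp18, which removes ISG15 from proteins and blocks the type I receptor, had a log2 fold change of 2.09 ± 0.357, and Socs3, an inhibitor of cytokine receptor signalling, had 2.11 ± 0.339. Samhd1, a nucleotide hydrolase, had 0.55 ± 0.134, and Adar, which edits double-stranded RNA, had 0.86 ± 0.158. This count was 3 without scramble replicate 1, 1 without scramble replicate 2 or knockdown replicate 2, 0 without scramble replicate 3 (7 with an unadjusted p under 0.05) and 2 without knockdown replicate 1.

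The list of other interferon-induced effectors held 24 genes, of which 17 were called, all higher, with a median log2 fold change of 1.31. Mx1, a gene of the dynamin-like GTPase family, had 2.29 ± 0.327, and Oas1a, a double-stranded RNA sensor of the RNase L system, had 2.49 ± 0.296. Cmpk2, a nucleotide kinase, had 2.57 ± 0.433, and Eif2ak2, the kinase PKR that halts translation, had 1.12 ± 0.222. The count was 9 without scramble replicate 2 or knockdown replicate 2 and 1 without scramble replicate 3. In DESeq2 it was 22, and all 24 had an unadjusted p under 0.05 in edgeR, against 3822 of all 16327 genes tested.

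IFIT1 distinguishes RNAs by their caps, so genes that make, methylate or bind caps were read as well. The list of cap synthesis and methylation held 9 genes, among them the cap-removing enzymes Dcp2, Nudt16 and Dxo. Of the 9, 1 was called, Dcp2, which removes caps rather than making or methylating them (log2 fold change 0.51 ± 0.0999, edgeR adjusted p = 0.0166). Cmtr1 and Cmtr2, the enzymes that methylate the cap-proximal riboses, had 0.31 ± 0.144 (edgeR adjusted p = 0.217) and 0.04 ± 0.233 (edgeR adjusted p = 0.940). The median was 0.09, and leaving out scramble replicate 2, scramble replicate 3 or knockdown replicate 2 left no called gene in the list, where 1 had an unadjusted p under 0.05. With spike-in library sizes 4 were called, Rngtt, Ramac, Cmtr1 and Dcp2. Of 20 cap-binding and initiation genes 2 were called, Eif4e3, an eIF4E-like cap-binding protein gene (0.75 ± 0.194, edgeR adjusted p = 0.0478), and Eif3e, a subunit of the initiation factor eIF3 that IFIT proteins bind (0.34 ± 0.0827, edgeR adjusted p = 0.0377). The median was 0.19, and the count was 0 without scramble replicate 1, scramble replicate 3, knockdown replicate 1 or knockdown replicate 2, 1 without scramble replicate 2 and 4 without knockdown replicate 3, with 9 at an unadjusted p under 0.05 and 3 called in DESeq2. With spike-in library sizes 14 of the 20 were called, and without a filter on low counts 4.

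**Figure D4:**
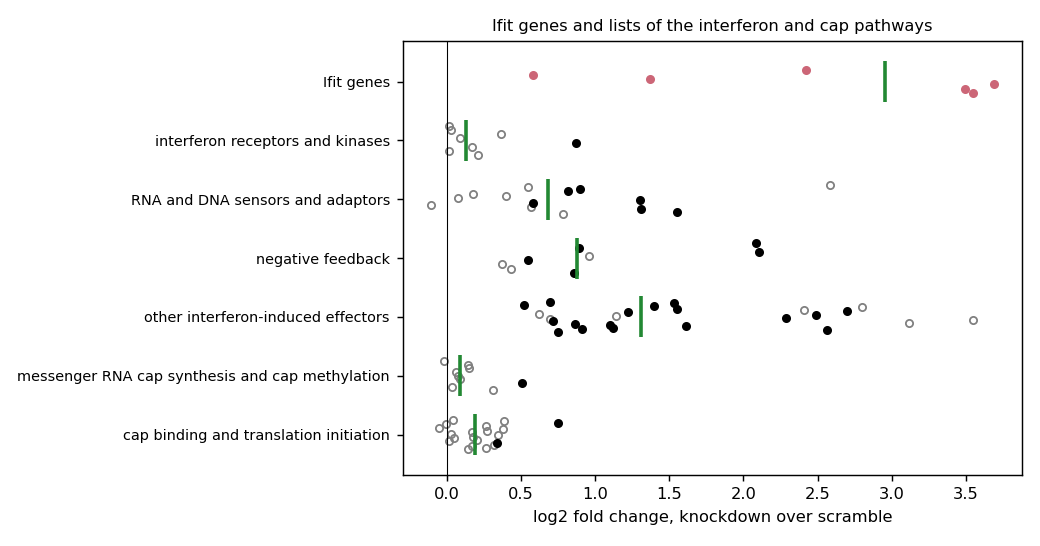
Fitted log2 fold change (knockdown over scramble) of each tested gene of 6 of the lists, with filled black points for called genes, open grey points for the others and a green bar at the median. The 6 Ifit genes (red, calls not shown) have 3 members between 3.49 and 3.69, the effector list has a median of 1.31, and the cap lists have medians of 0.09 and 0.19.

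The genes whose profile over the 6 libraries was nearest to that of the summed Ifit counts were Ifi44, Isg15, Oasl1, Gm12250, Gvin1, Cmpk2, Zbp1, n-TPtgg5, Trim30d and Spats2l. Likeness was the root mean square distance between log2 profiles, each centred on its own mean, and is given as a description, since it contains the difference between the groups. Ifi44 was nearest at 0.235, with 192, 68.1 and 111 normalized counts in the scramble libraries and 1689, 1031 and 515 in the knockdown libraries. Isg15, which encodes a ubiquitin-like modifier, followed at 0.236, with 234, 84.5 and 135 against 2604, 1858 and 873. Both had scramble replicate 2 and knockdown replicate 3 as the lowest library of their group, as the summed Ifit counts did. Spats2l was the farthest of the 10 at 0.402, against a median distance of 1.70 over all genes. The distance of n-TPtgg5 rests on few scramble reads, and it passed the filter through its knockdown libraries. It had 13.3, 4.39 and 9.90 normalized counts in the scramble libraries and 83.0, 91.2 and 30.8 in the knockdown libraries. Within the family, Ifit3, Ifit1 and Ifit3b lay at 0.137, 0.190 and 0.214 from the sum to which they contribute most, Ifit1bl2 at 0.604, Ifit2 at 0.984 and Ifit1bl1 at 1.45.

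**Figure D5:**
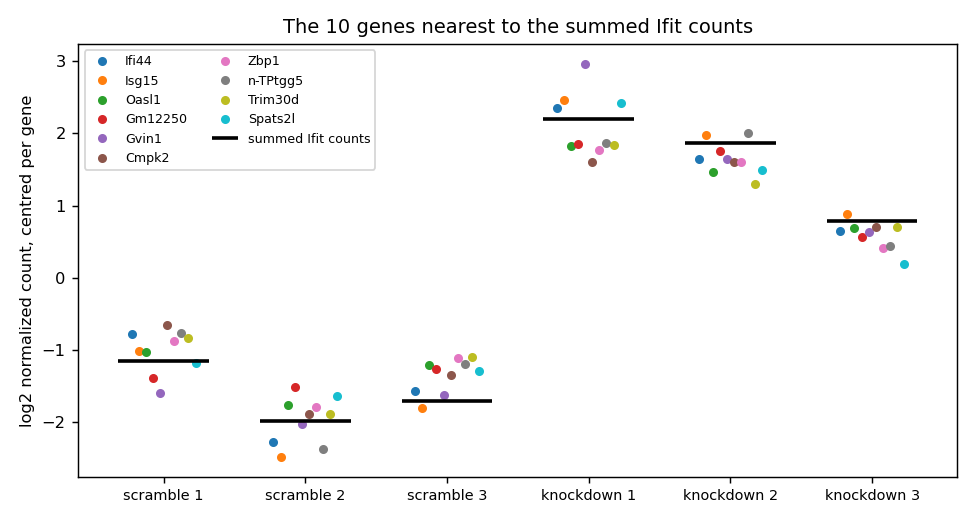
Log2 normalized count of the 10 nearest genes (points) and of the summed Ifit counts (black bars) in each library, centred on each gene's mean over the 6 libraries. All points lie below 0 in the scramble libraries and above 0 in the knockdown libraries, and the Ifit sum is lowest in scramble replicate 2 and knockdown replicate 3 within the groups.

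In bulk liver, fewer cells of a type and less RNA per cell cannot be told apart. Of 12 Kupffer cell and macrophage marker genes 5 were called higher (Adgre1, Clec4f, C1qa, C1qb and Lyz2), all 12 had a log2 fold change above 0, and the median was 0.45. The summed TPM of the list was 358, 297 and 316 in the scramble libraries and 458, 460 and 368 in the knockdown libraries, without overlap, and within the knockdown group replicate 3 was the lowest here too. With scramble replicate 2, scramble replicate 3 or knockdown replicate 2 left out 0 markers were called (8 or 9 had an unadjusted p under 0.05), against 1 without knockdown replicate 1, 8 without knockdown replicate 3 or without a filter, and 11 with spike-in library sizes. The part of these cells in the Ifit values was not tested. The hepatocyte list had summed TPM of 81560 to 86370 in scramble livers and 76480 to 91750 in knockdown livers. Of its 9 genes 0 were called in edgeR, with 3 at an unadjusted p under 0.05, and 2 were called in DESeq2. In edgeR 1 was called without knockdown replicate 1 or without a filter, and 4 with spike-in library sizes. Over all 16327 genes tested, 3822 had an unadjusted p under 0.05, and 3030 were called higher with spike-in library sizes.

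Summed TPM of the lymphocyte and natural killer list was 17.5 to 23.7 in scramble livers and 17.8 to 23.1 in knockdown livers. That of the dendritic cell list was 144 to 176 against 221 to 257, but only 2 of its 8 tested genes had a log2 fold change above 0. Their median was −0.03. One of the 2 was Bst2, itself interferon-induced and also in the effector list, which had mean normalized counts of 881 in scramble livers and 1481 in knockdown livers. Bst2 was called higher (0.75 ± 0.107, edgeR adjusted p = 0.00424). Ccr9 of the same list was called lower (−0.88 ± 0.213, edgeR adjusted p = 0.0369), a call that was not made in DESeq2 and, with 1 library left out, was made only without knockdown replicate 3. The neutrophil list had 2.05 to 3.53 against 4.83 to 9.12, with Ly6g and Mpo at 0 in all libraries and 1 gene tested. In the sinusoidal endothelial and stellate lists 0 genes were called in edgeR and DESeq2, with 0 and 1 at an unadjusted p under 0.05. In each of these lists 1 of 9 genes had a log2 fold change above 0, with medians of −0.05 and −0.12. Summed TPM of the endothelial list was 178.8 to 185.3 in scramble livers and 150.9 to 177.2 in knockdown livers, without overlap. That of the stellate list was 191.0 to 248.2 against 160.9 to 209.5. Among the alternatives, Lyve1 of the endothelial list was called higher with spike-in library sizes, and Des of the stellate list was called lower without scramble replicate 1 or without a filter. Cd4 of the lymphocyte list was called higher with spike-in library sizes. S100a9 of the neutrophil list was called higher without a filter, on few reads (2.05, 1.10 and 0 normalized counts in scramble livers against 11.4, 8.55 and 5.43 in knockdown livers). The part of any of these cells in the Ifit values was not tested.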

How the data were processed

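RNA-seq of liver from 6 mice was analysed, 3 per group, grouped by the sample labels. Reads were trimmed and aligned with STAR by the authors, who ran featureCounts on exons and kept reads with a unique place. The deposited raw counts are whole numbers for 40803 genes and 92 ERCC spike-ins. The authors also deposited TPM of the same rows, used for levels between genes. Their gene models are not given in the sources used here: lengths implied by TPM exceed GENCODE exons (2895 against 1745 bases for Ifit3). The methods name GRCm38 and the submitters' processing notes GRCm39, and positions are GRCm38 by symbol (28960 of 40803 symbols matched GENCODE M21, 37492 matched RefSeq). The labels describe ribosomal RNA depletion, the methods poly(A) selection. The deposited normalized counts and the authors' comparison (fold changes and p-values) were not used.

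Genes were filtered with filterByExpr, scaled by TMM and tested with edgeR 4.0.16 (robust quasi-likelihood, Benjamini-Hochberg). Promoters and motifs were read with Python 3.11.15. DESeq2 1.42.0, DESeq2 size factors, spike-in sizes, no filter, a replicate block, summed copies and leaving out each library were alternatives. Totals were 14704746 to 16532510 in the scramble libraries and 18021614 to 19462398 in the knockdown libraries. Spike-ins took 1.377% to 1.52% of counts in the scramble libraries and 1.185% to 1.245% in the knockdown libraries. Both differed between the groups without overlap. In 3 simulations of this comparison, 91% to 92% of 200 genes changed by a log2 of 2 among 16327 were recovered, and 8.46% to 9.90% of calls were false. Members and lists were chosen with earlier results of these data known. Named were the 6 members, the 5 nearest genes on each side, up to 4 called genes a list in list order plus those with a role in the text, and the 10 most alike. Proteins were not analysed here, and 1 gene of the lists is not reported here.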

Additional observations from a re-analysis of the deposited data

How the results depend on the processing

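The log2 fold change of the summed Ifit counts was 3.24 and ranged from 2.94 to 3.66 when 1 library was left out. No Ifit gene reversed its direction under any alternative tried: the range was 3.34 to 3.95 for Ifit1, 1.26 to 1.57 for Ifit2, 3.03 to 3.83 for Ifit3, 3.16 to 4.06 for Ifit3b, 0.06 to 1.15 for Ifit1bl1 (the highest with Ifit1bl1 and Ifit1bl2 summed) and 2.08 to 3.26 for Ifit1bl2. Spike-in library sizes moved the median of all genes to 0.20, the genes called from 1032 (505 higher) to 3394 (3030 higher) and the pathway genes called from 34 to 66. Without a filter 1902 genes were called. Leaving out 1 library gave 103 to 1881 genes, 2 to 48 pathway genes and 0 to 1 neighbours, and the cause was not tested.

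The labels number the replicates within each group and do not say whether equal numbers were handled together. Correlations of same-numbered deviations were −0.0226, 0.0231 and 0.00321, and not every sample correlated best with its own number. With 3 libraries per group these values cannot show whether the samples were paired. With a replicate block 878 genes were called, 0 neighbours of the cluster (Lipa −0.39, edgeR adjusted p = 0.0645; 1 of 7 at an unadjusted p under 0.05 and 1 called in DESeq2) and 34 pathway genes, with the cap-binding list going from 2 to 0 (9 at an unadjusted p under 0.05, 3 called in DESeq2). The depth limits Ifit1bl2, with 2 to 9 reads per scramble library.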
